A study of Mus musculus with 4 samples.

Results

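Macrophage chemokine ligands are the small secreted proteins with which macrophages, microglia included, attract other leukocytes. The set described here holds 10 genes, 7 of the CC family (Ccl2, Ccl3, Ccl4, Ccl6, Ccl7, Ccl9 and Ccl12) and 3 of the CXC family (Cxcl2, Cxcl10 and Cxcl16). They were taken by gene name from the 4 deposited tables, which together listed 21981 genes, 18723 of them with a count in every library. All 10 members had a count in all 4 libraries. RNA sequencing had been done on microglia of the cerebral cortex of untreated mouse embryos at embryonic day 16. The 2 control libraries, numbered 1 and 6, are labelled Bach1 fl/fl, that is, mice with a floxed Bach1 allele. The 2 libraries labelled Bach1 cKO, numbered 2 and 5, came from a conditional knockout that the series names Bach1cKO-Cx3. The labels do not give the Cre line beyond this name, the way the cells were isolated, or whether the libraries came from separate embryos, so p-values measure only the spread between these samples.

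Chemokines act through G protein-coupled receptors on the cells they attract. In mice, CCL2, CCL7 and CCL12 are ligands of CCR2, which draws monocytes into tissue. CCL3, CCL6 and CCL9 are ligands of CCR1, a receptor of monocytes and other leukocytes, and CCL4 attracts similar cells. CXCL2 attracts neutrophils through CXCR2, CXCL10 is an interferon-induced ligand of CXCR3, and CXCL16 is a membrane-bound ligand of CXCR6 that the proteases ADAM10 and ADAM17 release. In macrophages many of these genes are switched on by NF-kB, and BACH1, the repressor targeted in this study, belongs to a factor family that binds antioxidant response elements.

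The genes lie in a few places of the genome (GRCm38 coordinates, identical to the annotation for all 10, and all protein coding). Chromosome 11 holds 8 of them. Ccl2 (82035571 to 82037453), Ccl7 (82045712 to 82047525) and Ccl12 (82101845 to 82103400) lie in one stretch of its plus strand. Ccl9 (83572919 to 83578636), Ccl6 (83587882 to 83593087) and Ccl3 (83647844 to 83649355) follow on the minus strand, next to Ccl4 (83662584 to 83664683) on the plus strand. Cxcl16 (70453983 to 70459984, minus strand) is on the same chromosome, apart from both clusters. Cxcl2 (90903871 to 90905938, plus strand) and Cxcl10 (92346638 to 92348889, minus strand) are on chromosome 5.

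RefSeq start sites (GRCm38.p6) were at hand for 6 of the 10 members (Ccl3, Ccl6, Ccl9, Ccl12, Cxcl10 and Cxcl2), and the 250 bases upstream of each were searched for motifs on both strands. The kappa B consensus, the site of NF-kB, was found upstream of Ccl9, Cxcl10 and Cxcl2, and in 3.90% of the 32851 windows of this length. The AP-1 letters TGANTCA stood upstream of Ccl9 and Cxcl10 (6.75% of all windows). The core of the antioxidant response element, TGACNNNGC, was found upstream of Cxcl10 alone among the 6 (10.2% of all windows), where it overlaps the AP-1 match. The core bound by interferon regulatory factors, AANNGAAA, stood upstream of Ccl3 and Cxcl10 (21.3%). No window of the 6 held the PU.1 core GAGGAAGT (2.44% of all windows), and TATAAA was found upstream of Ccl9 and Ccl12 (12.4%). Such matches describe letters and not bound sites. The windows of Ccl3 and Ccl9, the pair of members with the most similar levels across the libraries, are shown with the kappa B matches in capitals. Those of Cxcl10 and Cxcl2, which had few reads, are shown in the same way. The windows shown are chr11:83649379-83649628 (minus strand), chr11:83578637-83578886 (minus strand), chr5:92348890-92349139 (minus strand) and chr5:90903649-90903898 (plus strand), each written 5′ to 3′ on the gene's strand.
Ccl3: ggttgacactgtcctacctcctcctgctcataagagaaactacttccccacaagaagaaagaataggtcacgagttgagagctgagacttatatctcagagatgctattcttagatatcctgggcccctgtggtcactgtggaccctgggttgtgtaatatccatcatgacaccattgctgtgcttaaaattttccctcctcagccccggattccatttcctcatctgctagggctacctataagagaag
Ccl9: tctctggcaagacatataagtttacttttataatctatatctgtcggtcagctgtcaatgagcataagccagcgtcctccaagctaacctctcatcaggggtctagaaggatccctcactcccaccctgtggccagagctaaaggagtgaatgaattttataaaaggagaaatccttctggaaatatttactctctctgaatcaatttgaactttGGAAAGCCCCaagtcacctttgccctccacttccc
Cxcl10: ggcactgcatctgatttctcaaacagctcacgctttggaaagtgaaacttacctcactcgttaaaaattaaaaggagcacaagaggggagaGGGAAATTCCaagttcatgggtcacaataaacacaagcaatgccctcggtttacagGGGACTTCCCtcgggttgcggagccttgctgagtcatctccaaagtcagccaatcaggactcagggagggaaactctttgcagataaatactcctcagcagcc
Cxcl2: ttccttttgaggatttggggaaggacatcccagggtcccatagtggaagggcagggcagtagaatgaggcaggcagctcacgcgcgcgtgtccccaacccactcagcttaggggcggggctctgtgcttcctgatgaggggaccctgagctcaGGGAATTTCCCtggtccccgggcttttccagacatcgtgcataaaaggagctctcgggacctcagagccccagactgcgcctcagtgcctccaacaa
Cxcl10 carried 2 separate kappa B matches, GGGAAATTCC from 159 bases and GGGACTTCCC from 103 bases before the start. The capitals of Cxcl2 are overlapping matches on the 2 strands, and Ccl9 had 1 match. Of the 6 motifs, Ccl3 had only the interferon regulatory factor core in this window.

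Library totals ran from 17233115 to 19305078 reads, so 3 reads correspond to 0.155 to 0.174 CPM (read counts that the authors scaled to a common library total). The targeted gene, Bach1, had 45.8 and 21.6 CPM in control libraries 1 and 6 and 30.0 and 35.4 CPM in cKO libraries 2 and 5. Its count can include exons outside the floxed part, so it does not check the labels, on which every direction given here rests. The libraries differed in their cell markers. The 16 microglial markers summed to 30010 and 47700 CPM in control libraries 1 and 6 and 11090 and 42420 CPM in cKO libraries 2 and 5, and all 16 were lowest in cKO 2. Excitatory neuron markers (10 genes) summed to 1121, 346, 3870 and 311 CPM in the same order, and endothelial markers (8 genes) to 5271, 1172, 3851 and 786 CPM. cKO 2 stood apart in its microglial and neuronal markers, while its endothelial sum was near that of control 1, and the log2 fold changes of members and lists are given with and without it. In bulk samples, fewer cells of a type and less RNA per cell cannot be told apart.

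Ccl3, Ccl6 and Ccl9 were the abundant members and held between 93.0% and 95.0% of the reads of all 10 in each library. Ccl3 (ENSMUSG00000000982), which encodes MIP-1 alpha, stood at 280 and 373 CPM in control libraries 1 and 6, against 82.8 and 339 CPM in cKO libraries 2 and 5. Ccl6 (ENSMUSG00000018927) stood at 302 and 526 CPM in control libraries 1 and 6 and at 106 and 345 CPM in cKO libraries 2 and 5. Ccl9 (ENSMUSG00000019122), also known as MIP-1 gamma, stood at 350 and 480 CPM in control libraries 1 and 6 and at 104 and 526 CPM in cKO libraries 2 and 5. For each of the 3 genes, cKO 2 was the low library and the value of cKO 5 was above that of control 1, so the groups overlapped. Ccl3 averaged 326 ± 66.1 CPM over the controls and 211 ± 181 CPM over the cKO libraries, and Ccl6 averaged 414 ± 158 and 225 ± 169 CPM (SD, n = 2 each). Ccl9 averaged 415 ± 91.9 and 315 ± 298 CPM. The log2 fold changes of cKO over control were −0.62 ± 0.85 for Ccl3, −0.89 ± 0.81 for Ccl6 and −0.38 ± 0.94 for Ccl9 (SE). None was past the threshold in edgeR's quasi-likelihood test (adjusted p = 0.9997 for each).

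The CCR2 ligands were less abundant. Ccl2 (ENSMUSG00000035385), the monocyte chemoattractant MCP-1, stood at 30.7 and 42.5 CPM in control libraries 1 and 6, against 9.94 and 29.3 CPM in cKO libraries 2 and 5. In CPM both cKO values were below both controls, although cKO 5 was close to control 1 and their 95% intervals (exact Clopper-Pearson, 26.9 to 31.8 and 28.1 to 33.4 CPM) overlapped. Ccl12 (ENSMUSG00000035352) stood at 12.2 and 12.5 CPM in control libraries 1 and 6 and at 5.95 and 15.7 CPM in cKO libraries 2 and 5, so the cKO libraries stood on either side of the controls. Ccl7 (ENSMUSG00000035373) stood at 1.60 and 2.26 CPM in control libraries 1 and 6 and at 0.751 and 1.61 CPM in cKO libraries 2 and 5. These Ccl7 values rest on 13 to 39 reads, and the intervals of control 1 (1.06 to 2.32 CPM) and cKO 2 (0.400 to 1.28 CPM) overlapped. Such intervals cover counting error only. The log2 fold changes were −0.91 ± 0.73 for Ccl2, −0.74 ± 0.94 for Ccl7 and −0.19 ± 0.71 for Ccl12 (SE), with an adjusted p of 0.9997 for each in edgeR.

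Ccl4 (ENSMUSG00000018930), the neighbour of Ccl3, which encodes MIP-1 beta, stood at 5.32 and 9.75 CPM in control libraries 1 and 6 and at 1.85 and 9.38 CPM in cKO libraries 2 and 5. cKO 5 lay between the controls, and the log2 fold change was −0.42 ± 1.05 (SE). Although the 2 genes are often named together, Ccl3 had 31.1 to 45.3 times the level of Ccl4 per kilobase of exon in each of the 4 libraries. Neither gene shared a stretch of 50 bases with a transcript of another gene, and no annotated gene overlapped either.

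Among the CXC ligands, Cxcl16 (ENSMUSG00000018920) stood at 7.15 and 7.72 CPM in control libraries 1 and 6 and at 3.12 and 6.99 CPM in cKO libraries 2 and 5. In CPM the last value was just below the controls, with an interval (5.86 to 8.28 CPM) that holds both of them. Exons of Zmynd15 on the opposite strand cover 18.3% of the exon bases of Cxcl16, and without a stated strand setting, reads of the 2 genes cannot be told apart there. Zmynd15 itself had 7 to 46 reads. Cxcl10 (ENSMUSG00000034855) stood at 1.66 and 1.10 CPM in control libraries 1 and 6 and at 0.404 and 0.984 CPM in cKO libraries 2 and 5, from 29, 19, 7 and 19 reads. Art3 overlaps 5.91% of its exon bases on the opposite strand, where reads of these 2 genes cannot be told apart either. Art3 itself had 286 and 74 reads in control libraries 1 and 6 and 265 and 13 in cKO libraries 2 and 5. These counts were above those of Cxcl10 in every library but cKO 5, and the part of Art3 in the Cxcl10 values was not tested. Cxcl10 had the most negative log2 fold change of the members tested, −0.98 ± 1.03 (SE), which is smaller than its error, and Cxcl16 had −0.57 ± 0.73. Cxcl2 (ENSMUSG00000058427) had 6 and 3 reads in the controls and 2 and 1 in cKO (0.343, 0.174, 0.116 and 0.0518 CPM) and did not pass the filter on low counts. Its 95% intervals overlapped between all libraries, and 5.84% of its stretches of 50 bases also occur in Cxcl3, so a difference was not detectable at this depth.

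**Figure D1:**
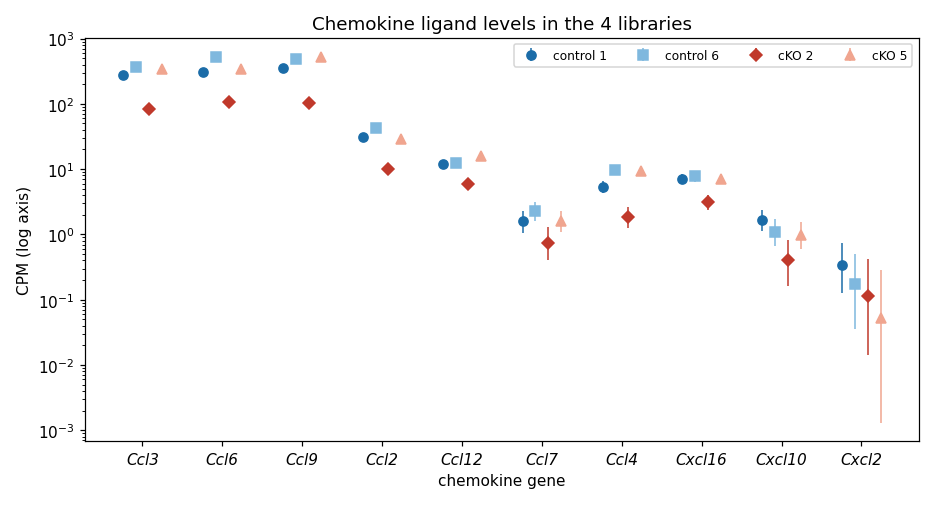
CPM on a log axis for the 10 chemokine ligand genes in each of the 4 libraries, with bars for the 95% exact interval of counting error. cKO 2 is the lowest library for every gene but Cxcl2, while cKO 5 lies near or among the controls (Ccl3 at 339 CPM against 280 and 373 CPM).

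Per kilobase of annotated exon, the order of the members was much the same in every library. Ccl3 came first, with 108 to 487 CPM per kilobase, then Ccl6 (58.9 to 293) and Ccl9 (34.3 to 173), and Ccl4 was sixth (2.80 to 14.8). Cxcl10 (0.180 to 0.737) and Cxcl2 (0.0250 to 0.166) closed the order in all 4 libraries. Ccl2 (8.73 to 37.4) and Ccl12 (11.1 to 29.3) changed places, Ccl2 being higher in both controls and Ccl12 in both cKO libraries. Read for read, Ccl2 had 2.52 and 3.39 times the count of Ccl12 in the controls and 1.67 and 1.86 times in cKO. This ratio was not tested, and 2 against 2 libraries have only 3 distinct splits. Of the other pairs compared, Ccl2 over Ccl7 and Cxcl16 over Cxcl10 also separated the groups, while Ccl3 over Ccl4 and Ccl9 over Ccl6 did not. Ccl7 and Cxcl16 also changed places, Ccl7 being higher in control 6 only. The exon lengths are unions over all annotated isoforms (537 bases for Ccl12 and 3045 for Ccl9), which lowers the per-kilobase value of genes with many isoforms.

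Across the genotype contrast, no member passed the threshold. The quasi-likelihood test of edgeR covered 15951 genes, of which 9 were members, and 0 members and 0 genes in all (0%) had an adjusted p under 0.05. At an unadjusted p under 0.05 there were 0 members, against 0.307% of all genes (49 genes), and DESeq2 and limma-voom also gave 0 members with or without adjustment. All 9 log2 fold changes were negative, from −0.98 to −0.19 with a median of −0.62, beside a median of 0.03 over all genes tested. In the same fit 7526 of the 15951 genes were negative. All 16 microglial markers were negative too, with a median of −0.48, so the sign was not particular to the chemokines. Without cKO 2, a setting added for this list after seeing the data, 12 of the markers were positive and 4 negative, with a median of 0.26. An exact permutation of 2 against 2 libraries has only 3 distinct splits and cannot go below p = 0.333. In CPM, both cKO libraries were below both controls for 4 of 10 members (Ccl2, Cxcl10, Cxcl16 and Cxcl2), where 6.57% of all genes tested had that arrangement. With CPM divided by the TMM factors, which correct for library composition, only 2 of 10 members had it (Cxcl10 and Cxcl2, beside 7.64% of all genes tested). No member had both cKO libraries above both controls, in CPM (9.31% of all genes tested) or after TMM (8.33%). cKO 2 was the lowest of the 4 libraries for 9 of 10 members, and for 25.2% of the genes tested.

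The negative values came mostly from cKO 2. In CPM, cKO 2 had between 0.245 (Ccl4) and 0.481 (Ccl12) times the control mean, with a median of 0.282 over the 10 members, while cKO 5 had a median of 0.887. cKO 5 was above the control mean for Ccl3 (1.04), Ccl4 (1.24), Ccl9 (1.27) and Ccl12 (1.27), and below it for Cxcl16 (0.940), Ccl6 (0.834), Ccl7 (0.831), Ccl2 (0.800), Cxcl10 (0.713) and Cxcl2 (0.200, from 1 read). Fitted without cKO 2, 5 of the 9 tested members turned positive, namely Ccl12 (0.46), Ccl9 (0.44), Ccl4 (0.40), Ccl3 (0.15) and Cxcl16 (0.02), and the median was 0.02. Fitted without cKO 5, all 9 were between −2.30 and −1.31 with a median of −2.15. In that fit 4 members had an unadjusted p under 0.05 in edgeR, with 5.49% of all genes tested lower at that p, and the smallest adjusted p of a member was 0.4681. These fits leave 1 library in the cKO group, which is assumed to vary as the controls do.

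**Figure D2:**
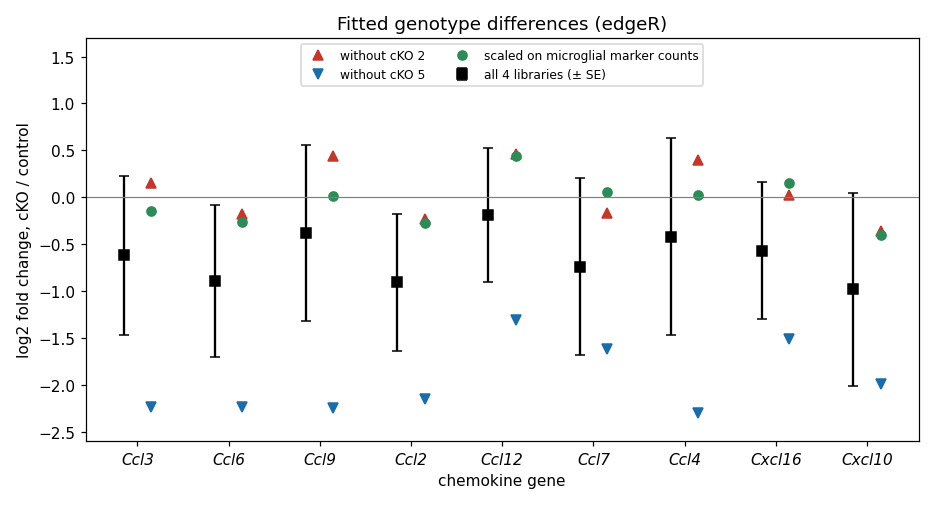
Log2 fold change of cKO over control for the 9 members tested, with all 4 libraries (squares, bars are ± SE), without cKO 2, without cKO 5, and with scaling on microglial marker counts. The fits without cKO 5 lie between −2.30 and −1.31, and those without cKO 2 between −0.36 and 0.46.

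The members were therefore also set against the microglial markers of the same library. This list of 16 genes includes Csf1r, P2ry12, Tmem119 and C1qa and none of the chemokines. One marker, C1qc, was uneven, with 2434 and 9046 per 100000 marker reads in control libraries 1 and 6 and 6540 and 10080 in cKO libraries 2 and 5. Its low count lowers the marker total of control 1, and a scaling without it was not run. The summed reads of the 10 members were 3300 and 3049 per 100000 marker reads in control libraries 1 and 6, and 2842 and 3003 in cKO libraries 2 and 5. The summed level of the members thus varied 4.62-fold between the lowest and the highest library in CPM and 1.16-fold per marker read. Per marker read both cKO sums were below both control sums, with cKO 5 close to control 6, and this order was not tested. Ccl3 had 931.5 and 782 reads per 100000 marker reads in control libraries 1 and 6 and 747 and 798 in cKO libraries 2 and 5. Ccl9 had 1166 and 1006 in control libraries 1 and 6 and 942 and 1241 in cKO libraries 2 and 5. On this scale the 4 libraries overlapped for both genes, and cKO 2 was no longer far below the others. Ccl6 had 1007 and 1102 in control libraries 1 and 6 and 953 and 814 in cKO libraries 2 and 5, and was the 1 member of 10 with both cKO values below both controls (1.05% of the genes tested). No member had both cKO values above both controls (12.4% of the genes tested), and cKO 2 was the lowest library for 3 of 10 (1.77%). Ccl2 had 102, 89.2, 89.6 and 69.0 in libraries control 1, control 6, cKO 2 and cKO 5, and Ccl4 had 17.7, 20.4, 16.7 and 22.1. The median of cKO 2 over the control mean was 0.933 on this scale, in place of 0.282 in CPM, and that of cKO 5 was 0.797.

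Of the less abundant members, Ccl7, Ccl12, Cxcl16 and Cxcl2 were above the control mean in cKO 2 on this scale. Ccl12 had 40.6 and 26.3 reads per 100000 marker reads in control libraries 1 and 6 and 53.7 and 37.1 in cKO libraries 2 and 5. Cxcl16 had 23.8 and 16.2 in control libraries 1 and 6 and 28.1 and 16.5 in cKO libraries 2 and 5. Both genes were higher in control 1 and cKO 2 than in the other library of their group, and so were Ccl2, Ccl7, Cxcl10 and Cxcl2. Control 1 and cKO 2 are also the libraries with more neuronal and endothelial marker reads. The part of other cell types in these values was not tested. Fitted in edgeR with marker counts as the library size, the 9 members had log2 fold changes between −0.40 (Cxcl10) and 0.44 (Ccl12) with a median of 0.01, and the smallest adjusted p was 0.8508. The same scaling moved the median of all genes tested to 1.23. Cx3cr1 is one of the 16 markers and its values were lower in both cKO libraries, at 747 and 2756 CPM against 4333 and 5158 CPM. Without it, a choice made after seeing the data, the members summed to 3857, 3418, 3047 and 3212 reads per 100000 marker reads, a 1.27-fold range, and 7 of 9 log2 fold changes were negative with a median of −0.09.

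**Figure D3:**
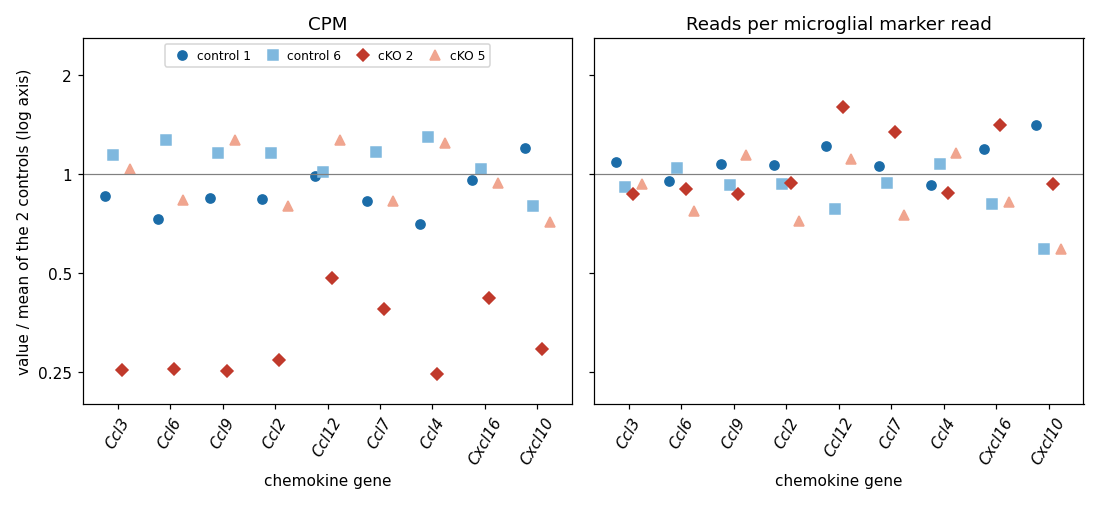
Values of 9 members divided by the mean of the 2 controls, on a log axis, for each library, in CPM (left) and in reads per microglial marker read (right). In CPM cKO 2 lies between 0.245 and 0.481 of the control mean, and per marker read between 0.867 and 1.60.

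Macrophages of the brain's borders also make several of these ligands, and their markers moved partly in another way. The 9 border-associated macrophage markers summed to 947 and 1209 CPM in control libraries 1 and 6 and 405 and 1822 CPM in cKO libraries 2 and 5. Of these 9 markers, 7 were lowest in cKO 2, and all 9 were highest in cKO 5. Their member Mrc1, the mannose receptor gene, had 166, 204, 85.9 and 370 CPM. Ccl9 and Ccl12 were the members with their highest CPM in cKO 5. Per 1000 reads of border macrophage markers the 10 members summed to 1046, 1203, 779 and 699 reads, a 1.72-fold range. Monocyte markers (6 genes with counts) summed to 254, 63.2, 187 and 69.1 CPM, and neutrophil markers (7 genes) to 117, 174, 64.9 and 229 CPM. The part of these cells in the chemokine values was not tested.

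In the authors' deposited tables, which compare 1 cKO with 1 control library each, the outcome depended on the cKO library. Both tables of cKO 2 call 9 of the 10 members lower, all but Cxcl2, where the authors' deposited table calls 11.6% of genes lower against control 1 and 13.4% against control 6. No member was called higher in either, nor in the tables of cKO 5, while the authors' deposited tables call 20.0% and 33.7% of genes higher for cKO 2 and 8.79% for cKO 5 against control 1. For cKO 2, the members' fold changes in the authors' deposited tables ran from 0.244 to 0.488 against control 1 and from 0.190 to 0.664 against control 6. For cKO 5 against control 1 the authors' deposited table calls only Cxcl2 lower (26.0% of all genes), from 1 against 6 reads, and gives Ccl4 a fold change of 1.76 without calling it. For cKO 5 against control 6, the 2 libraries with the most microglial marker reads, the authors' deposited table calls 0 members (11.4% of genes were called lower and 9.23% higher). Its fold changes were 1.10 for Ccl9, 0.962 for Ccl4, 0.908 for Ccl3, 0.688 for Ccl2 and 0.657 for Ccl6. Every member called in the 4 tables had a fold change of 0.488 or less. Against control 6, Ccl9, Ccl3, Ccl2 and Ccl6 had small deposited adjusted p-values without being called. A member that is not called can thus still differ in reads between 2 libraries. The 4 tables share libraries in pairs, and each tests reads of 2 libraries, so their calls compare those libraries and are not replicates of the genotype contrast.

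Receptors of these ligands were measured in the same libraries. Ccr1, the receptor of CCL3, CCL6 and CCL9, had 91.4, 153, 31.95 and 178 CPM, and Cxcr2, the receptor of CXCL2, had 51.9, 77.8, 16.5 and 65.0 CPM in libraries control 1, control 6, cKO 2 and cKO 5. Both were lowest in cKO 2, as most of the ligands were. Per 100000 microglial marker reads, Cxcr2 had 173, 163, 149 and 153 reads, while Ccr1 was highest in cKO 5 (420 against 288 to 321). Ccr2, the receptor of CCL2 on monocytes, stood at 7.27 and 11.3 CPM in control libraries 1 and 6 and at 4.85 and 11.5 CPM in cKO libraries 2 and 5. Cxcr3, the receptor of CXCL10, had 0.809 to 3.37 CPM. Of the 18 receptor genes listed, 11 were tested and 0 were called in edgeR, 2 with a positive and 9 with a negative log2 fold change (median −0.35). Without cKO 2, a setting added for the lists after seeing the data, 12 were tested, 8 were positive and 4 negative, and the median was 0.25, with 0 called. Adam10 and Adam17, which shed CXCL16, had 257 to 342 and 83.3 to 171 CPM, and both were lowest in cKO 2. Per 100000 microglial marker reads both were instead highest in cKO 2. On that scale Adam10 had 1141, 633, 2321 and 785 reads and Adam17 had 543, 358, 751 and 400, in the order control 1, control 6, cKO 2 and cKO 5.

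Several other chemokine ligands showed a different order of the libraries. Of 30 listed, 11 had a count in every library, and 8 of these were tested, with 5 positive and 3 negative log2 fold changes, a median of 0.54 and 0 called in edgeR. Without cKO 2, 9 were tested, with 3 positive and 6 negative values, a median of −0.32 and 0 called. Cxcl12, a ligand of CXCR4 made by meninges, vessels and neural cells of the developing cortex, had 78.2 and 21.6 CPM in control libraries 1 and 6 and 92.3 and 13.2 CPM in cKO libraries 2 and 5. Cx3cl1, the neuronal fractalkine gene, had 23.5, 7.60, 26.2 and 5.33 CPM. Both had their 2 high values in control 1 and cKO 2, unlike any of the 10 members. Ccl27a had 3.78, 1.10, 23.2 and 1.76 CPM and Ccl25 had 6.41, 5.51, 12.4 and 4.71 CPM, each highest in cKO 2. Of the 11 ligands with counts, 6 were highest in cKO 2 and 1, Ccl5, was lowest there, whereas 0 of the 10 members were highest and 9 lowest. Among the 6 was Ppbp, with 6 reads in both control 1 and cKO 2. Ccl24 (1.26, 4.58, 1.79 and 7.82 CPM) and Pf4 (2.63, 3.42, 2.83 and 14.1 CPM) were highest in cKO 5.

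**Figure D4:**
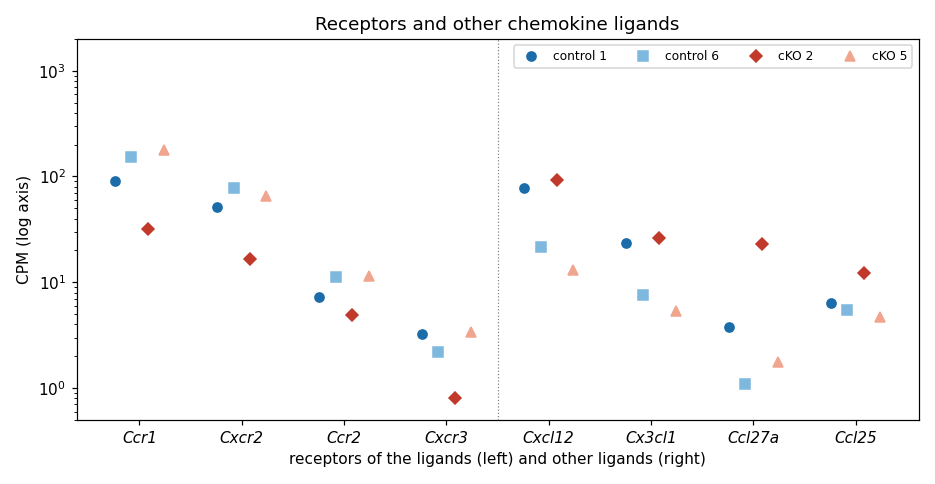
CPM on a log axis in each library for 4 receptors of the ligands (left of the dotted line) and for 4 other chemokine ligands (right). The receptors are lowest in cKO 2 (Ccr1 at 31.95 CPM), whereas Cxcl12, Cx3cl1, Ccl27a and Ccl25 are highest there (Cxcl12 at 92.3 CPM).

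The likeness of patterns was measured as the distance between centred log2(CPM + 0.5) values over the 4 libraries, among 11191 genes with a mean of at least 5 CPM. Within the set, where members of any level were compared, Ccl3 and Ccl9 were closest (0.258), followed by Ccl2 and Ccl6 (0.271) and by Ccl7 and Cxcl16 (0.297). Ccl7 had only 0.751 to 2.26 CPM and Cxcl10 only 0.404 to 1.66 CPM. The added 0.5 CPM shrinks the differences of both between libraries, which also changes which genes lie closest to them. The gene closest to Ccl4 was Sirpa (0.0337), which had 2278, 3911, 917 and 3774 CPM in libraries control 1, control 6, cKO 2 and cKO 5. The closest to Ccl6 was the microglial receptor gene P2ry12 (0.185), and to Ccl3 were Cables1 (0.0848) and Il6ra (0.0857). Ccl2 was closest to Qprt (0.105) and Whrn (0.111), Ccl9 to Neurl1a (0.132) and Ccl12 to Blvrb (0.0408). Among the CXC ligands, Cxcl16 was closest to Arhgap17 (0.0454) and Cxcl10 to Nfkbiz (0.115), which had 34.2, 23.8, 13.6 and 20.9 CPM. All these genes share the libraries, so with 4 points many genes lie close to any pattern, and the distances are a description only.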

How the data were processed

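Microglial RNA of 4 libraries (2 control, 2 cKO, grouped by sample title) was compared. The submitters' processing notes list TopHat2 2.0.12, Bowtie2 2.2.3, HTSeq 0.6.0 and build mm9 without roles or settings, whereas positions in the tables match GRCm38 (90.4% identical among 21922 genes). The authors deposited raw read counts per gene, CPM on fixed library totals (0 reads given the value of 0.5), the ratio of the normalized values as fold change, its log2, and p-values of a test not given in the sources used here. Counts of a library were identical in its tables (0 mismatches).

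The genotypes were compared on the deposited counts with edgeR 4.0.16 (R 4.3.3), using the quasi-likelihood test, TMM factors (0.917 to 1.15), filterByExpr with a minimum count of 10 and two-sided Benjamini-Hochberg adjustment at 0.05 over all 15951 genes tested, with 2 residual degrees of freedom. The script was tested on simulated data. DESeq2 1.42.0, limma 3.58.1 (voom), other scalings, no filter and leaving out each library were alternatives. Members and lists were chosen with earlier results of these data known. The text names all members, receptors of theirs and genes closest to a member. Of a list that is described it mostly names up to 4 of the most abundant genes. Adam10, Adam17, Ccr2, Cxcr3, Zmynd15 and Art3 are named for their relation to members. Tmem119, which is not among the 4 most abundant microglial markers, is named as a marker. Ccl5, Ccl24, Pf4, Ppbp and C1qc were named after their values were seen. CPM printed was not divided by TMM factors. One receptor gene is not reported here.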

Additional observations from a re-analysis of the deposited data

How the results depend on the processing

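The count of genes called between the genotypes was 0, and so was the count of members, with DESeq2 size factors, the DESeq2 Wald test, limma-voom, no filter on low counts, each library left out and both marker scalings. At an unadjusted p under 0.05, all genes numbered 49 with edgeR, 74 with DESeq2, 37 with limma-voom and 149 without a filter. Leaving out 1 library at a time gave ranges of −2.24 to 0.15 for Ccl3, −2.30 to 0.40 for Ccl4, −2.25 to 0.44 for Ccl9, −1.31 to 0.46 for Ccl12 and −1.51 to 0.02 for Cxcl16, each positive without cKO 2. Ccl4 was also positive without control 6 (0.20). Ccl2 (−2.15 to −0.23), Ccl6 (−2.24 to −0.18), Ccl7 (−1.62 to −0.17) and Cxcl10 (−1.99 to −0.36) stayed negative. Scaling on microglial markers gave 0.02 for Ccl4, 0.06 for Ccl7, 0.01 for Ccl9, 0.44 for Ccl12 and 0.15 for Cxcl16, and without Cx3cr1 0.34 for Ccl12 and 0.05 for Cxcl16. The cause was not tested. No paired analysis was possible because the groups share no replicate number. Members with few reads (Cxcl2, Cxcl10 and Ccl7) are limited by counting error.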

Other observations

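Genes of the pathways that induce chemokines were also read in these libraries. Of 11 NF-kB pathway and feedback genes, all were tested, 0 were called in edgeR, and 1 had a positive and 10 a negative log2 fold change (median −0.27, beside 0.03 over all genes tested). Nfkb1, which encodes an NF-kB subunit, had 96.8, 134, 54.5 and 129 CPM in libraries control 1, control 6, cKO 2 and cKO 5, and Nfkbia, the gene of the inhibitor IkB alpha, had 165, 97.6, 148 and 84.0 CPM. Zfp36, whose product destabilises cytokine mRNAs, had 249, 260, 79.95 and 158 CPM, with both cKO values below both controls (an arrangement of 6.57% of all genes tested). Per 100000 microglial marker reads it had 830, 546, 721 and 373 reads, and the groups overlapped. Of 12 interferon response genes, 11 were tested, with 3 positive and 8 negative log2 fold changes and 0 called (median −0.42). Irf9, a subunit of the factor that type I interferon activates, had 85.2, 71.7, 40.8 and 102 CPM, so the groups overlapped. All 10 immediate early genes were tested, with 0 called, 9 of 10 negative (7526 of the 15951 genes tested) and a median of −0.97. At an unadjusted p under 0.05 in edgeR there were 2, Fos and Egr1, where 0.307% of all genes tested passed. Both were chosen after their values were seen. Per 100000 microglial marker reads the groups overlapped for both. On that scale Fos had 518.5 and 147 reads in control libraries 1 and 6 and 225 and 96.3 in cKO libraries 2 and 5. Egr1 had 285, 161.5, 227 and 92.1 in the same order. The summed level of the 10 genes was 1007 and 820 CPM in control libraries 1 and 6 and 641 and 566 CPM in cKO libraries 2 and 5, with both cKO sums below both control sums. Per 100000 microglial marker reads the sums were 3354 and 1720 in control and 5781 and 1333 in cKO, so cKO 2 was the highest library on that scale. Fitted without cKO 2, a choice made after seeing the data, the median was 0.13 for the NF-kB genes (6 of 11 positive), 0.07 for the interferon response genes (7 of 12 positive) and −0.59 for the immediate early genes (9 of 10 negative), beside −0.03 over all genes tested, with 0 called in each list.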
